A study of Mus musculus with 13 samples.

Results

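The 54 genes described here are the collagens and the matrix genes that fibroblasts are known for, followed in the brains of mice that had a transient stroke, or sham surgery, with or without prior loss of microglia. They were chosen by name alone: every gene whose symbol reads Col, a number, a and a number (44 collagen chains), and Dcn, Lum, Fn1, Postn, Sparc, Prelp, Ogn, Fbln1, Fbn1 and Lox (10 genes). They are 54 of the 21056 genes that all 4 deposited group tables hold, and all 54 were among the 16940 genes that passed the filter on low counts.

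The study sequenced total RNA from the brains of 13 male mice in 4 groups, to ask how the response to stroke differs once microglia are removed. Mice of every group carried CX3CR1creER/+ and Rosa26iDTR/+, that is a tamoxifen-inducible Cre recombinase at Cx3cr1 and a diphtheria toxin receptor that Cre switches on, and all were given 2 doses of tamoxifen by gavage at 7 to 8 weeks of age. Cx3cr1 is active in microglia and in other mononuclear phagocytes, so the toxin is not limited to microglia by its promoter. The depleted groups (DE) were given diphtheria toxin at 50 ng per g of body weight on 3 days, starting 30 days after tamoxifen, and the control groups (CON) were given saline. In the tMCAO groups the right middle cerebral artery was blocked with a filament for 60 min and then reopened, and the sham groups had sham surgery. The groups were sham_MG_CON (n = 3), sham_MG_DE (n = 4), tMCAO_MG_CON (n = 4) and tMCAO_MG_DE (n = 2). The surgery protocol gives an age of 6 to 8 weeks, which the tamoxifen schedule does not allow, and the labels leave this unresolved. How long after the occlusion tissue was taken, and from which brain region, is not stated in the labels.

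Collagens are built from 3 chains wound into a triple helix. The fibrillar types I, II, III, V and XI form the fibres of connective tissue and scars, type IV forms the sheet of basement membranes around vessels, and the fibril-associated types decorate the fibres. In healthy brain, fibrillar collagen, decorin and lumican are made mainly by fibroblasts of the meninges and of the sheath around larger vessels, whereas endothelial cells and pericytes make the type IV network. After injury, fibroblasts and other cells around vessels lay down collagen I, collagen III, fibronectin and periostin in the lesion, and lysyl oxidase crosslinks the fibres.

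Libraries held 16239763 to 22080367 counts over the 21056 genes. The microglial marker genes Csf1r, Tmem119, P2ry12 and Cx3cr1 summed to 25 to 26.2 FPKM in sham_MG_CON and 20.9 to 26.1 FPKM in tMCAO_MG_CON, against 1.14 to 3.97 FPKM in sham_MG_DE and 1.56 to 2.05 FPKM in tMCAO_MG_DE. FPKM, the unit of level used throughout, is the count scaled to gene length and library size. Replicate 1 of sham_MG_DE, with a microglial sum of 2.25 FPKM, stood apart from the other depleted libraries on the first principal component, at -5.04 against 31.9 to 48, with the controls at -34.6 to -20.7. Replicate 4 of tMCAO_MG_CON has a treatment entry that reads sham surgery, against its title and description, by which it was grouped. Animal identifiers differ for every library, and p-values measure the spread between these libraries.

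Most of the 54 genes were scarce in these brains. Sparc, a collagen-binding protein of the matrix, was the most abundant at a mean of 42.3 FPKM over the 13 libraries (SD 6.96, range 30.4 to 54.5). Col6a1 followed at 22.5 FPKM, with a highest library (29.8 FPKM) below the lowest of Sparc, and the type IV chains Col4a2 and Col4a1 followed at 19.2 and 17.7 FPKM. The library ranges of Col6a1, Col4a2 and Col4a1 overlapped. The most abundant fibrillar chain was Col5a1, with 6.31 FPKM (SD 1.41), while the collagen I chains averaged 1.13 FPKM (Col1a1) and 0.703 FPKM (Col1a2). In 25 of the 54 genes the mean stayed under 1 FPKM in every group, and 5 genes (Sparc, Col6a1, Col4a2, Col4a1 and Dcn) exceeded 10 FPKM in a group. The gene lengths implied by the deposited counts and FPKM were mostly longer than the longest coding transcript, by a median ratio of 1.28. The ratio ran from 0.85 for Lum to 3.88 for Col26a1, with 3.04 for Col1a2 and 3.78 for Postn. It takes the summed counts of the genes used as library size, which was not checked. Levels of genes with a high ratio may be understated relative to others.

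Stroke with microglia present was the comparison in which the most matrix genes rose, in number and in share of all genes. Of the 54, 8 were higher in tMCAO_MG_CON than in sham_MG_CON (14.8%, against 5.14% of all genes tested) and 2 were lower (3.7%, against 3.31%), at an adjusted p under 0.05 by edgeR's quasi-likelihood test. The genes that rose were Col1a1, Col1a2, Col3a1, Col4a1, Col5a3, Col18a1, Fn1 and Dcn, and those that fell were Col11a2 and Col24a1. The median log2 fold change was 0.23 over the 54 and 0.02 over all genes tested. In bulk brain RNA, fewer cells of a type and less RNA per cell cannot be told apart.

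Stroke after depletion gave another pattern of calls. Between tMCAO_MG_DE and sham_MG_DE, 5 of the 54 were higher (9.26%, against 6.59% of all genes) and 6 were lower (11.1%, against 5.84%), with a median of -0.07 against 0.00. The 5 were Col4a1, Col4a2, Col18a1, Col5a3 and Lox, and none of them was a chain of collagen I or III. The 6 that fell were Col11a2, Col19a1, Col24a1, Col26a1, Col4a6 and Prelp.

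Few members were called with depletion itself. In sham brains 5 of the 54 were higher in sham_MG_DE than in sham_MG_CON (9.26%, against 6.85% of all genes) and 1 was lower (1.85%, against 4.49%). In stroke brains 1 was higher in tMCAO_MG_DE than in tMCAO_MG_CON (1.85%, against 9.36%) and 4 were lower (7.41%, against 9.26%), with a median log2 fold change of -0.30 over the 54 and -0.01 over all genes. Few calls need not mean little change. By edgeR, 20 of the 54 had an unadjusted p under 0.05 with depletion in stroke (5841 of all genes), and 8 in sham (4902). With stroke there were 21 in control mice (4032) and 19 in depleted mice (4757). A share near or under that of all genes is no result about these genes as a group. The interaction, which asks whether the log2 change with stroke differed between depleted and control mice, was called for 0 of the 54 and for 8 of 16940 genes (0.0472%). At an unadjusted p under 0.05 it held 10 of the 54 and 1647 of all genes. The stroke comparison with microglia present and the depletion comparison in sham share the sham_MG_CON libraries, and the other neighbouring pairs share a group likewise.

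**Figure D1:**
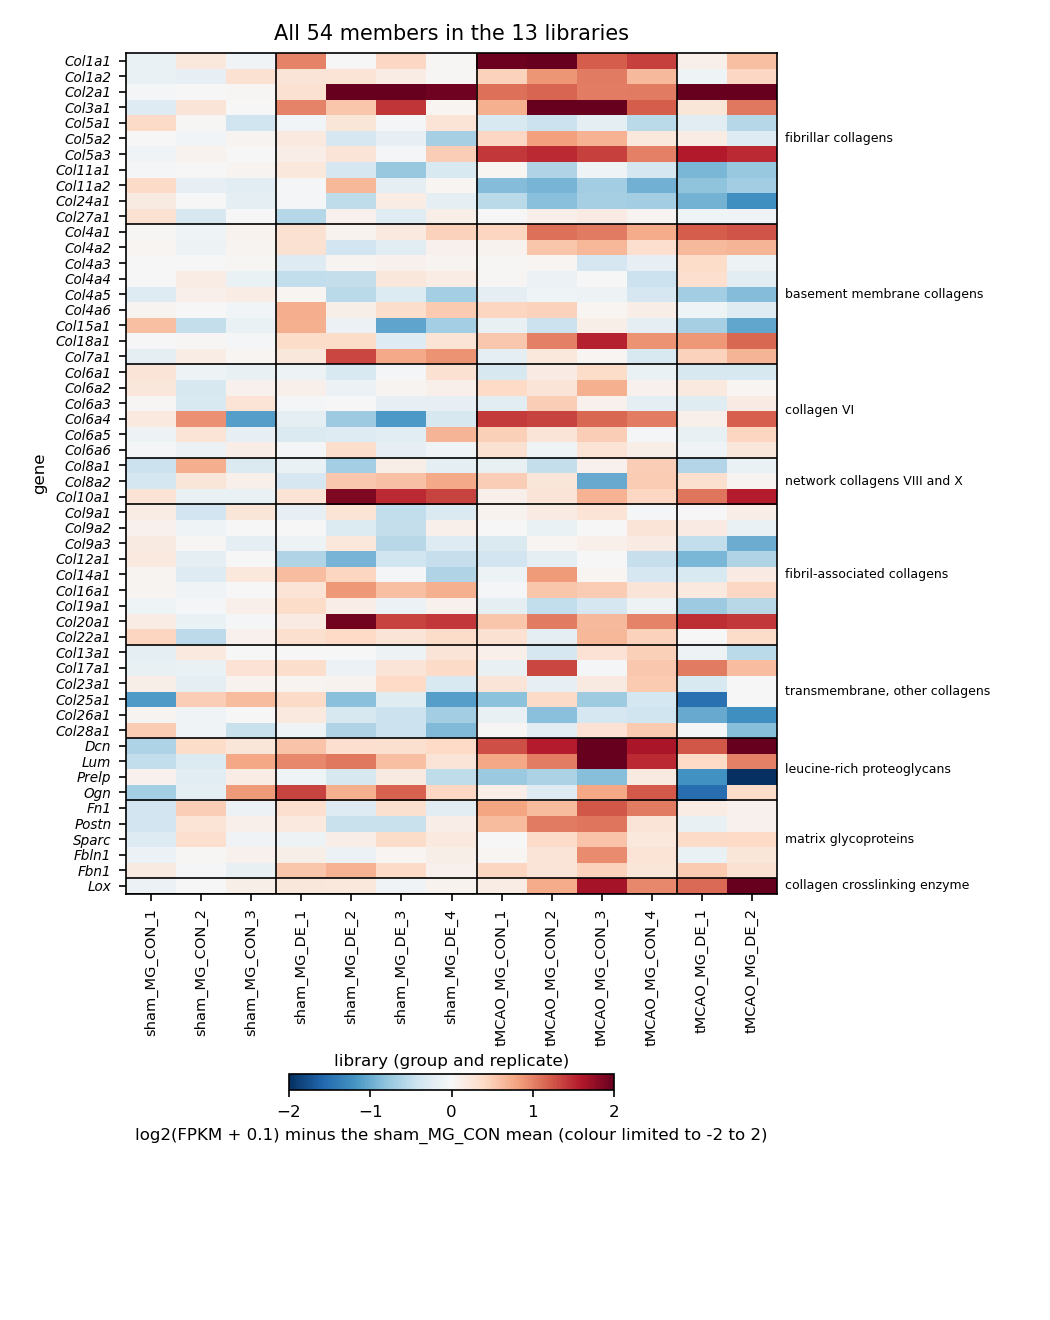
All 54 genes (rows, by class) in the 13 libraries (columns, by group and replicate), as log2(FPKM + 0.1) minus the mean of sham_MG_CON, with red above and blue below it. Col1a1 and Col3a1 are red in the 4 tMCAO_MG_CON libraries, Col5a3 and Col4a1 in the 6 tMCAO libraries, and Col2a1, Col10a1 and Col20a1 in the depleted libraries other than sham_MG_DE replicate 1. Red is not limited to these. Col1a1 is also red in sham_MG_DE replicate 1, Col3a1 in sham_MG_DE replicates 1 and 3, and Col2a1 and Col20a1 in the 4 tMCAO_MG_CON libraries.

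Collagen I, the main fibre of scar, rose with stroke in control mice, and in depleted mice it passed no test. Col1a1 (chr11:94936224-94953042 in GRCm38, plus strand), its first chain, was at 0.463, 0.613 and 0.490 FPKM in sham_MG_CON and at 2.30, 3.64, 1.34 and 1.49 FPKM in tMCAO_MG_CON. In the depleted mice it was at 1.13, 0.514, 0.725 and 0.530 FPKM in sham_MG_DE and at 0.567 and 0.843 FPKM in tMCAO_MG_DE. Every tMCAO_MG_CON library lay above all 9 libraries of the other groups, and replicate 2 was the highest. With stroke, the log2 fold change of Col1a1 was 1.98 ± 0.38 (standard error, SE; adjusted p = 0.0069 by edgeR) in control mice, and this call held without each library in turn. In depleted mice the log2 fold change was -0.08 ± 0.42 (adjusted p = 0.92). Col1a1 was lower in tMCAO_MG_DE than in tMCAO_MG_CON by a log2 fold change of -1.61 (adjusted p = 0.021), a call that ended without replicate 1 or replicate 2 of tMCAO_MG_DE (adjusted p = 0.16 and 0.096).

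The second chain of collagen I also rose with stroke in control mice. Col1a2 (chr6:4504814-4541544, plus strand) was at 0.472, 0.457 and 0.672 FPKM in sham_MG_CON and at 0.763, 1.05, 1.19 and 0.885 FPKM in tMCAO_MG_CON. It was at 0.648, 0.657, 0.594 and 0.537 FPKM in sham_MG_DE and at 0.488 and 0.731 FPKM in tMCAO_MG_DE. The 4 tMCAO_MG_CON libraries again lay above all others, by a narrow margin over replicate 2 of tMCAO_MG_DE. In control mice the log2 fold change was 0.77 ± 0.19 (adjusted p = 0.026), and in depleted mice it was -0.04 ± 0.21. The call in control mice ended without sham_MG_CON replicate 1 or 2 (adjusted p = 0.11 and 0.094) and without tMCAO_MG_CON replicate 2 or 3 (0.062 and 0.071), as it did without sham_MG_CON replicate 2 and sham_MG_DE replicate 3 together (0.12).

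Collagen III, which forms fibres together with collagen I, showed the largest log2 fold change of the 54 genes with stroke in control mice and also a wide spread. Col3a1 (chr1:45311538-45349706, plus strand) was at 0.0578, 0.125 and 0.0904 FPKM in sham_MG_CON and at 0.208, 1.53, 0.703 and 0.337 FPKM in tMCAO_MG_CON. It was at 0.276, 0.177, 0.412 and 0.0948 FPKM in sham_MG_DE and at 0.124 and 0.294 FPKM in tMCAO_MG_DE. The tMCAO_MG_CON libraries lay above those of sham_MG_CON but overlapped the depleted ones, and replicate 2 was again the highest. By edgeR, the log2 fold change was 2.85 ± 0.71 (adjusted p = 0.026) with stroke in control mice and -0.23 ± 0.74 (adjusted p = 0.87) in depleted mice. The call ended without sham_MG_CON replicate 1, 2 or 3 (adjusted p = 0.1, 0.057 and 0.098), without tMCAO_MG_CON replicate 2 or 3 (0.056 and 0.05), and with limma on log2(FPKM + 1) (0.082). Without tMCAO_MG_CON replicate 2 the log2 fold change was 2.08. Part of an exon of Col3a1 overlaps Gm47302 on the same strand, so its counts are uncertain by that overlap.

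Fibronectin, the adhesive glycoprotein on which collagen fibres are laid, rose with stroke in control mice and was lower with depletion in stroke. Fn1 (chr1:71585520-71653200, minus strand) was at 3.19, 5.97 and 3.88 FPKM in sham_MG_CON and at 7.35, 6.57, 10.1 and 8.74 FPKM in tMCAO_MG_CON. It was at 5.33, 3.48, 5.25 and 3.62 FPKM in sham_MG_DE and at 4.64 and 4.48 FPKM in tMCAO_MG_DE. The 4 tMCAO_MG_CON libraries were above all 9 others, and the depleted stroke libraries fell inside the sham range. Its log2 fold change was 0.82 ± 0.22 (adjusted p = 0.037) with stroke in control mice, 0.00 ± 0.25 in depleted mice, and -0.82 ± 0.25 (adjusted p = 0.04) for depletion in stroke. The first call ended without any of sham_MG_CON replicates 1 and 3, tMCAO_MG_CON replicates 3 and 4 and tMCAO_MG_DE replicates 1 and 2 (adjusted p = 0.052 to 0.14), and with the fit to only the groups compared (0.05). The call for depletion in stroke ended without any of sham_MG_CON replicate 3, tMCAO_MG_CON replicates 3 and 4 and tMCAO_MG_DE replicates 1 and 2 (adjusted p = 0.05 to 0.21). Exons of Fn1, and of Prelp and Col9a3 described further on, overlap Apol7d, Gm15851 and Tcfl5 on the opposite strand, and their counts are uncertain by that overlap.

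The other 4 glycoproteins of the set passed edgeR's test in no comparison. Postn, periostin, a matricellular protein of wounds, was at 0.150, 0.294 and 0.250 FPKM in sham_MG_CON, 0.271, 0.138, 0.139 and 0.257 FPKM in sham_MG_DE, 0.403, 0.570, 0.584 and 0.291 FPKM in tMCAO_MG_CON and 0.194 and 0.244 FPKM in tMCAO_MG_DE. Its log2 fold change was 0.90 (adjusted p = 0.1) with stroke in control mice and -1.04 (adjusted p = 0.067) for depletion in stroke, where it was called by DESeq2 (0.033) and by edgeR without tMCAO_MG_CON replicate 4 (0.045). Sparc ranged from 30.4 to 47.2 FPKM in the sham and from 36.4 to 54.5 FPKM in the stroke libraries, and the groups overlapped. Fbln1 and Fbn1, which are fibulin-1 and the microfibril protein fibrillin-1, stayed between 0.532 and 1.97 FPKM in all 13 libraries. DESeq2 called 1 glycoprotein, Fbn1, with depletion in sham, where edgeR's log2 fold change was 0.48 (adjusted p = 0.062).

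Among the small leucine-rich proteoglycans, which bind collagen fibres and set their spacing, decorin rose with stroke. Dcn (chr10:97479609-97518143, plus strand) was at 1.56, 3.19 and 2.90 FPKM in sham_MG_CON and at 6.08, 7.46, 23.1 and 7.75 FPKM in tMCAO_MG_CON. It was at 3.67, 3.12, 3.07 and 3.23 FPKM in sham_MG_DE and at 5.93 and 10.5 FPKM in tMCAO_MG_DE. All 6 stroke libraries lay above all 7 sham libraries, and tMCAO_MG_CON replicate 3 was far above the rest. In edgeR's fit, the log2 fold change with stroke was 2.02 ± 0.44 (adjusted p = 0.014) in control mice and 1.29 ± 0.45 (adjusted p = 0.079) in depleted mice. Without tMCAO_MG_CON replicate 3 the first became 1.39 (adjusted p = 0.0099), and the second, at the same 1.29, passed the test (adjusted p = 0.0086). The call in control mice ended without sham_MG_CON replicate 1 or 3 (adjusted p = 0.067 and 0.051), and the fit to only the groups compared called Dcn in depleted mice too (0.018).

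Lumican passed edgeR's test in no comparison. Lum, a close relative of decorin, was at 0.299, 0.365 and 0.857 FPKM in sham_MG_CON and at 0.856, 1.04, 2.90 and 1.48 FPKM in tMCAO_MG_CON, with 1.0, 1.07, 0.750 and 0.572 FPKM in sham_MG_DE and 0.640 and 1.03 FPKM in tMCAO_MG_DE. The groups overlapped, and the log2 fold change of 1.52 ± 0.47 with stroke in control mice missed the threshold (adjusted p = 0.064), while that in depleted mice was -0.07 ± 0.51. DESeq2 and limma on log2(FPKM + 0.1) called Lum in control mice (adjusted p = 0.017 and 0.036), as did edgeR without sham_MG_CON replicate 3 or tMCAO_MG_CON replicate 1 (0.048 and 0.044).

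Prelp, which anchors basement membranes to connective tissue, was the proteoglycan called lower. It was at 4.32, 3.48 and 4.52 FPKM in sham_MG_CON, 3.85, 3.24, 4.62 and 2.85 FPKM in sham_MG_DE, 2.40, 2.61, 2.21 and 4.64 FPKM in tMCAO_MG_CON and 1.70 and 0.813 FPKM in tMCAO_MG_DE. The depleted stroke libraries were the lowest of the 13, and tMCAO_MG_CON replicate 4 was as high as the sham libraries. Its log2 fold change was -1.58 ± 0.35 with stroke in depleted mice (adjusted p = 0.013) and -1.22 ± 0.35 for depletion in stroke (adjusted p = 0.029). The first call ended without tMCAO_MG_DE replicate 2 (adjusted p = 0.15). The second ended without that library or tMCAO_MG_CON replicate 4 (0.28 and 0.05) and with the fit to only the groups compared (0.065). With stroke in control mice the log2 fold change was -0.55 ± 0.28 (adjusted p = 0.25), and -0.87 (adjusted p = 0.042) without tMCAO_MG_CON replicate 4. Ogn, the remaining proteoglycan, ranged from 0.181 to 1.97 FPKM with all groups overlapping and no call.

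Lysyl oxidase, the enzyme that crosslinks collagen and elastin, rose with stroke in depleted mice from a very low level. Lox was at 0.0277, 0.0391 and 0.0506 FPKM in sham_MG_CON and 0.0628, 0.0605, 0.0321 and 0.0455 FPKM in sham_MG_DE, against 0.0538, 0.132, 0.338 and 0.170 FPKM in tMCAO_MG_CON and 0.205 and 0.559 FPKM in tMCAO_MG_DE. Each stroke group was above its own sham group in every library. The log2 fold change was 2.85 ± 0.57 (adjusted p = 0.0074) in depleted mice, which fell to 1.95 (adjusted p = 0.14) without tMCAO_MG_DE replicate 2. In control mice it was 2.02 ± 0.61 (adjusted p = 0.058), called by DESeq2 (0.019) and without tMCAO_MG_CON replicate 1 (0.022). The difference between both log2 changes was 0.83 (unadjusted 95% interval -1.07 to 2.73).

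**Figure D2:**
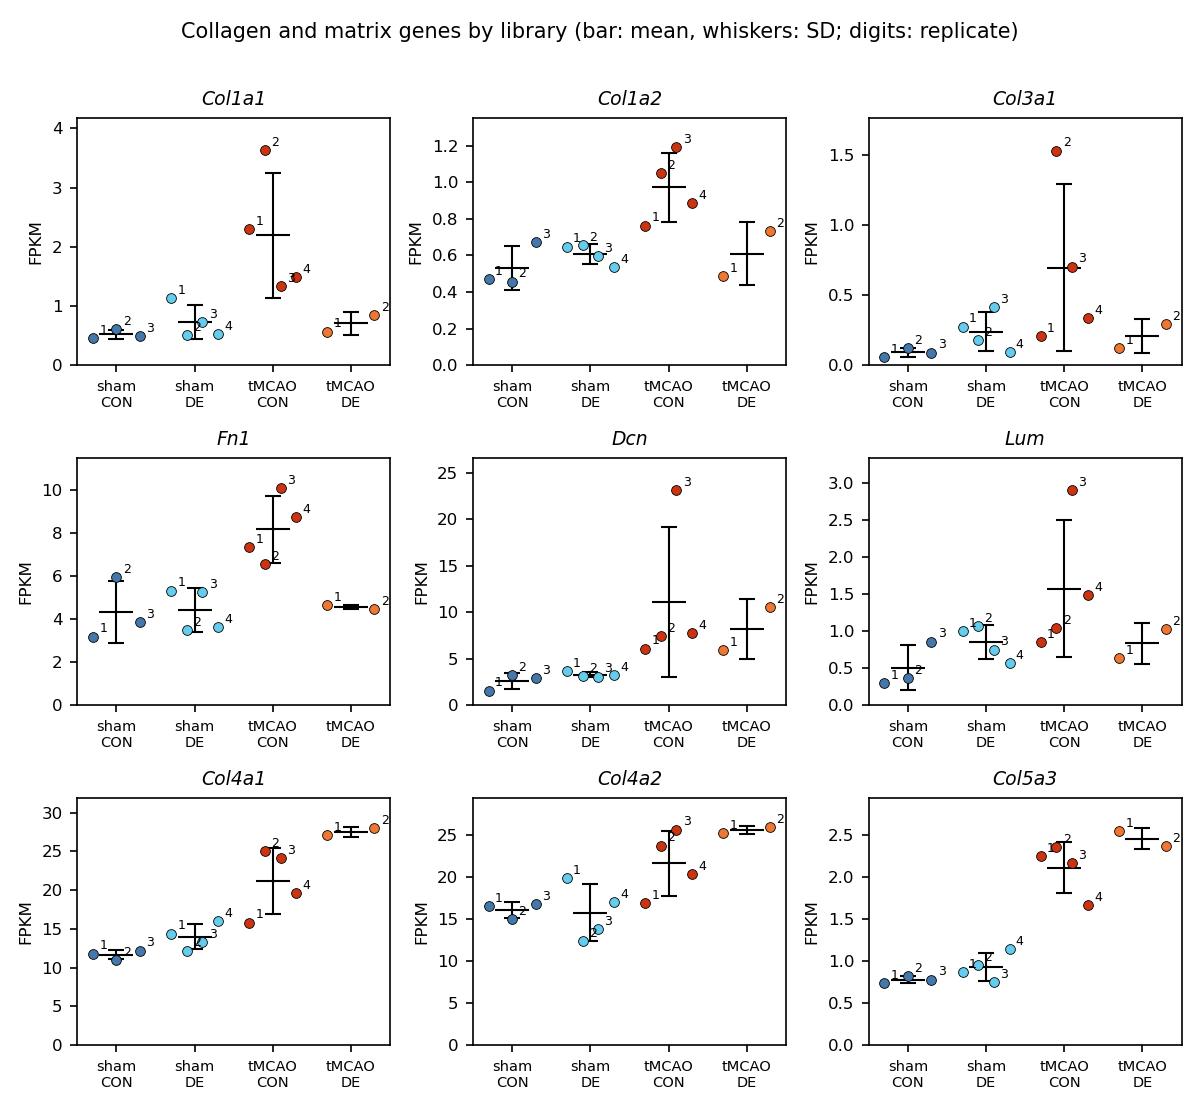
Levels in FPKM of 9 matrix genes in each library (points, numbered by replicate) by group, with the group mean (bar) and SD (whiskers); each vertical axis starts at 0. Col1a1, Col1a2 and Fn1 are highest in the 4 tMCAO_MG_CON libraries, while both tMCAO_MG_DE libraries are above every sham library for Col4a1, Col4a2 and Col5a3.

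Among the other fibrillar chains, 3 passed the test with stroke in the same direction in both sets of mice. Col5a3 (chr9:20770050-20815067, minus strand), a chain of the collagen V that nucleates fibres, was at 0.740, 0.817 and 0.779 FPKM in sham_MG_CON and 0.865, 0.953, 0.753 and 1.14 FPKM in sham_MG_DE. With stroke it was at 2.25, 2.36, 2.17 and 1.67 FPKM in tMCAO_MG_CON and 2.55 and 2.37 FPKM in tMCAO_MG_DE. All 6 stroke libraries lay above all 7 sham libraries. For Col5a3, the log2 fold change was 1.35 ± 0.15 (adjusted p = 0.00019) in control mice and 1.36 ± 0.15 (adjusted p = 0.00031) in depleted mice, and both calls held without each library in turn. The difference between them was 0.02 (unadjusted 95% interval -0.45 to 0.48).

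The fibrillar chains that fell with stroke did so in both sets of mice. Col24a1 (chr3:145292472-145552011, plus strand), a minor fibrillar collagen, was at 1.96, 1.72 and 1.5 FPKM in sham_MG_CON and 1.67, 1.18, 1.91 and 1.49 FPKM in sham_MG_DE, against 1.15, 0.919, 1.05 and 1.02 FPKM in tMCAO_MG_CON and 0.842 and 0.675 FPKM in tMCAO_MG_DE. Col24a1 had a log2 fold change of -0.83 ± 0.16 (adjusted p = 0.0063) in control mice and -1.08 ± 0.19 (adjusted p = 0.0039) in depleted mice, the latter lost without tMCAO_MG_DE replicate 2 (0.066). Col11a2 (chr17:34039437-34066685, plus strand), a chain of the collagen XI at the core of cartilage fibres, was at 4.76, 3.21 and 3.09 FPKM in sham_MG_CON, 3.57, 5.82, 3.13 and 3.71 FPKM in sham_MG_DE, 1.94, 1.85, 2.19 and 1.80 FPKM in tMCAO_MG_CON and 2.02 and 2.20 FPKM in tMCAO_MG_DE. No stroke library of either gene reached the sham range. For Col11a2, the log2 fold change was -1.02 ± 0.19 (adjusted p = 0.0072) in control mice and -0.99 ± 0.23 (adjusted p = 0.016) in depleted mice, the latter lost without tMCAO_MG_DE replicate 1 or 2 (0.13 and 0.098). The calls of both genes in control mice held without each library in turn. Col5a1, the most abundant fibrillar chain, had log2 fold changes of -0.50 (adjusted p = 0.062) in control mice and -0.55 (adjusted p = 0.06) in depleted mice, where it was lower in every library.

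The upstream sequences of 3 of these fibrillar genes are shown because the genes stand for the 3 patterns above, namely a rise in control mice, a rise in both sets of mice and a fall in both. Each runs 5′ to 3′ on the gene's strand over the 250 bases before the RefSeq start, at chr1:45311288-45311537 (plus strand) for Col3a1, chr9:20815068-20815317 (minus strand) for Col5a3 and chr3:145292222-145292471 (plus strand) for Col24a1 in GRCm38.p6. Capitals mark exact matches, on either strand, to CCAAT (the CCAAT box), to GGGCGG (the GC box), to TGANTCA (the AP-1 site) or to TATAAA (the TATA box).
Col3a1: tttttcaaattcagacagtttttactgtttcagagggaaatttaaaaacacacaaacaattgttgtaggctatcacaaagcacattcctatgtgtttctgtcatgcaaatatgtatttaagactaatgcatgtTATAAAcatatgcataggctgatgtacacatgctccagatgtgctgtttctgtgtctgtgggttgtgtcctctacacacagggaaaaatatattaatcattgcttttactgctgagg
Col5a3: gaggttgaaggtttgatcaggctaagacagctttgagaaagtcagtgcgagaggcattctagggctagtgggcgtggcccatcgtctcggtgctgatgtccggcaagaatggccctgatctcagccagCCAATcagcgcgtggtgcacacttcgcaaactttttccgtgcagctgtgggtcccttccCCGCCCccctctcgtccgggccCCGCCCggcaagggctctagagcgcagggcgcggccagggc
Col24a1: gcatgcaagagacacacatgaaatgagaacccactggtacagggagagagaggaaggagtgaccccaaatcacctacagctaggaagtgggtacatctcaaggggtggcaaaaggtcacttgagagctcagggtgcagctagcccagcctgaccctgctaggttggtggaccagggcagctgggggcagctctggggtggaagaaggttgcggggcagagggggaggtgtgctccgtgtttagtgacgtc
Col3a1 held 1 TATA box, Col5a3 held 1 CCAAT box and 2 GC boxes, and Col24a1 held none of the 4 motifs, which share no overlap in these windows. Of 32851 mouse promoter windows of this length, 33.8% held the CCAAT box, 32.7% the GC box, 6.7% the AP-1 site and 12.4% the TATA box. Of the 41 members with an entry, 14, 23, 1 and 7 held them in at least 1 window, in the same order. These members had 46 windows, so their counts are per gene and the shares above are per window. A match describes the letters in this window and is neither a binding site nor a cause.

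Of the 9 basement membrane collagens, 2 rose with stroke in control mice (against 5.14% of all genes), and in depleted mice 3 rose (against 6.59%) and 1 fell (against 5.84%). Col4a1 (chr8:11198423-11312826, minus strand) and Col4a2 (chr8:11312805-11449287, plus strand) encode the chains of the type IV trimer found in nearly all basement membranes, and their RefSeq starts lie 21 bases apart on opposite strands. Col4a1 was at 11.8, 11 and 12.2 FPKM in sham_MG_CON, 14.4, 12.2, 13.3 and 16 FPKM in sham_MG_DE, 15.8, 25.0, 24.1 and 19.6 FPKM in tMCAO_MG_CON and 27.1 and 28.0 FPKM in tMCAO_MG_DE. The depleted stroke libraries were the highest of the 13, and each stroke group exceeded its sham group in every library. The log2 fold change of Col4a1 was 0.76 ± 0.14 (adjusted p = 0.006) in control mice and 0.94 ± 0.15 (adjusted p = 0.0026) in depleted mice, and both calls held without each library in turn. For depletion in stroke it was 0.41 (adjusted p = 0.079), which passed the test without tMCAO_MG_CON replicate 2 (0.51, adjusted p = 0.035).

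Col4a2 was at 16.6, 15 and 16.8 FPKM in sham_MG_CON, 19.9, 12.4, 13.8 and 17.1 FPKM in sham_MG_DE, 16.9, 23.8, 25.7 and 20.4 FPKM in tMCAO_MG_CON and 25.3 and 26.0 FPKM in tMCAO_MG_DE. Each stroke group was above its own sham group in every library, with tMCAO_MG_CON replicate 1 just above. The log2 fold change was 0.65 ± 0.18 (adjusted p = 0.031) in depleted mice and 0.34 ± 0.16 (adjusted p = 0.23) in control mice. The call in depleted mice ended without sham_MG_DE replicate 2 or 3 (adjusted p = 0.06 and 0.065), without tMCAO_MG_DE replicate 1 or 2 (0.13 and 0.17) and with the fit to only the groups compared (0.068). Counts of Col4a1 and Col4a2 near their shared start cannot be told apart without strand information.

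Col18a1, the basement membrane collagen that yields endostatin, was at 0.293 to 0.307 FPKM in sham_MG_CON and 0.235 to 0.417 FPKM in sham_MG_DE, against 0.480, 0.702, 1.06 and 0.644 FPKM in tMCAO_MG_CON and 0.633 and 0.789 FPKM in tMCAO_MG_DE. All stroke libraries exceeded all sham libraries. Col18a1 had a log2 fold change of 1.17 ± 0.26 (adjusted p = 0.014) in control mice and 0.92 ± 0.27 (adjusted p = 0.041) in depleted mice. The first ended without sham_MG_CON replicate 1 or 3 (adjusted p = 0.057 and 0.064), and the second without any of 10 of the 13 libraries (adjusted p = 0.051 to 0.28; it held without sham_MG_DE replicate 1, tMCAO_MG_CON replicate 1 and tMCAO_MG_CON replicate 3). Col4a6, a chain of the type IV trimer of other tissues, was listed at 0.068 to 0.228 FPKM in all libraries, and its fall with stroke in depleted mice (-1.17, adjusted p = 0.048) ended without any of 11 of the 13 libraries (0.052 to 0.28), held without sham_MG_DE replicate 2 and tMCAO_MG_CON replicate 3, and was not called by DESeq2 (0.053).

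Outside these classes, 2 collagens fell with stroke in depleted mice. Col19a1, a fibril-associated collagen made by neurons in the brain, was at 4.94, 5.15 and 5.60 FPKM in sham_MG_CON, 6.75, 5.76, 4.82 and 5.57 FPKM in sham_MG_DE, 4.59, 3.67, 4.13 and 4.84 FPKM in tMCAO_MG_CON and 3.11 and 3.53 FPKM in tMCAO_MG_DE. Each stroke group was below its own sham group in every library. Col19a1 had a log2 fold change of -0.83 ± 0.15 (adjusted p = 0.0045) in depleted mice, lost without tMCAO_MG_DE replicate 1 (0.064), and -0.37 (adjusted p = 0.085) in control mice. Col26a1, which stayed at 0.335 to 1.06 FPKM, changed by -1.05 ± 0.27 (adjusted p = 0.026) in depleted mice, lost without tMCAO_MG_DE replicate 1 or 2 (0.11 and 0.2), with limma on log2(FPKM + 1) (0.062) and with the fit to only the groups compared (0.076).

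**Figure D3:**
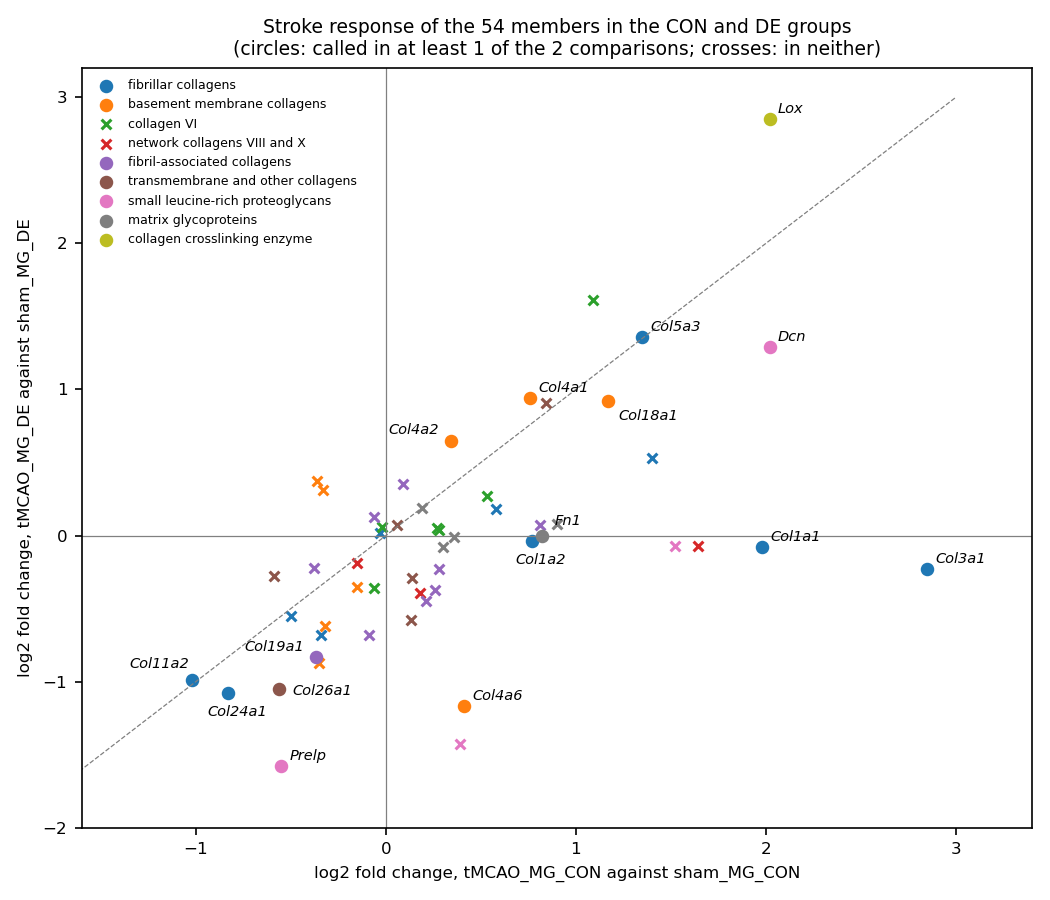
Log2 fold change with stroke in control mice (horizontal) against that in depleted mice (vertical) for the 54 genes, coloured by class, with circles for genes called in at least 1 of both comparisons, crosses for the others and a dashed line of equal change. Col5a3, Col4a1, Col11a2 and Col24a1 lie near that line, whereas Col1a1 (1.98 and -0.08), Col3a1 (2.85 and -0.23), Col1a2 and Fn1 lie to the right near 0 on the vertical axis.

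A call in 1 set of mice and none in the other does not show a difference, and the interaction tests it. For Col1a1 the log2 change with stroke was smaller in depleted mice by 2.06 (interaction -2.06 ± 0.56, unadjusted 95% interval -3.28 to -0.85), with an adjusted p of 0.28 by edgeR and 0.028 by DESeq2, which called 1 of the 54 (Col1a1) and 111 genes in all. The interaction of Col3a1 was -3.08 (interval -5.31 to -0.85, adjusted p = 0.37) and that of Col1a2 was -0.81 (interval -1.43 to -0.18, adjusted p = 0.4). For Fn1 it was -0.82 (interval -1.53 to -0.11), for Lum -1.59 (interval -3.09 to -0.08) and for Prelp -1.02 (interval -1.98 to -0.07), with adjusted p from 0.46 to 0.49. Ogn had the lowest interaction of the 4 proteoglycans, at -1.82, and 3 of these had an unadjusted p under 0.05 by edgeR. So no difference between the sets of mice passed edgeR's test, and with 2 libraries in tMCAO_MG_DE the intervals stayed wide. Of the type IV chains, Col4a1 and Col4a2 had intervals that spanned 0 (-0.27 to 0.63 and -0.20 to 0.84), while Col4a6 had an interaction of -1.58 (interval -2.59 to -0.57, adjusted p = 0.33).

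**Figure D4:**
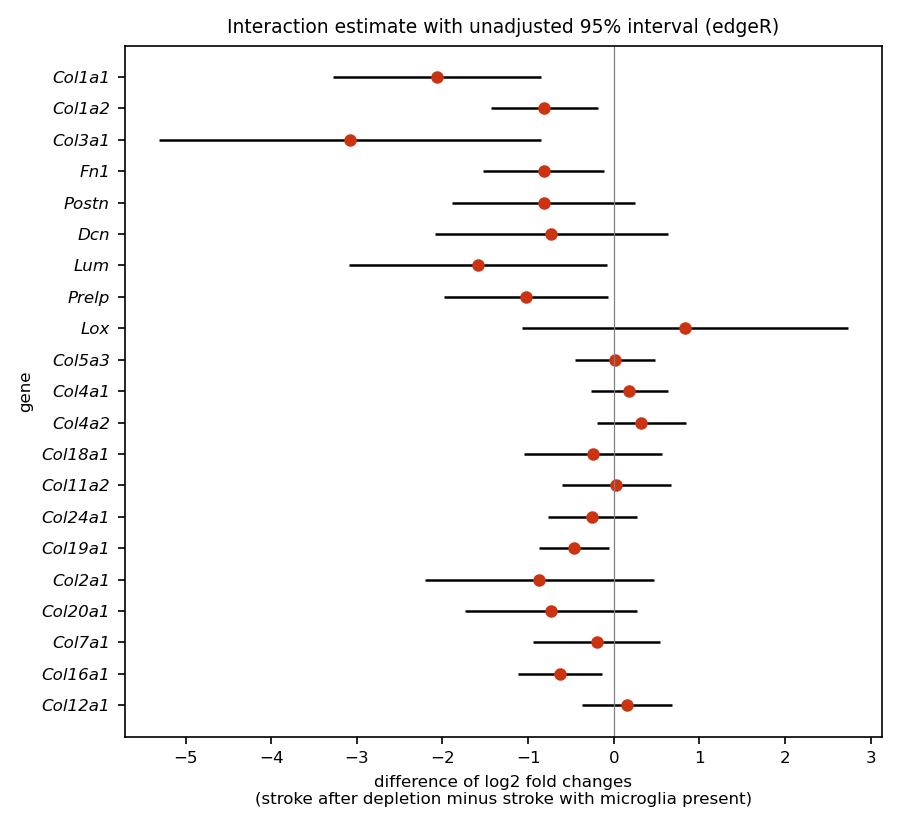
Interaction estimate (point) and unadjusted 95% interval (line) on the log2 scale for 21 members, as the change with stroke in depleted mice minus that in control mice. The intervals of Col1a1, Col1a2, Col3a1, Fn1, Lum, Prelp, Col19a1 and Col16a1 lie below 0 before adjustment, and no gene passed edgeR's adjusted test.

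With depletion in sham brains, 5 collagens rose (9.26%, against 6.85% of all genes), namely Col2a1, Col20a1, Col7a1, Col16a1 and Col10a1. The collagen XI chains Col11a1 and Col11a2, also of cartilage, were not called (log2 fold changes -0.29 and 0.11). Col2a1 (chr15:97975602-98004695, minus strand), the main collagen of cartilage, was at 0.157, 0.161 and 0.164 FPKM in sham_MG_CON and at 0.223, 1.29, 1.22 and 0.906 FPKM in sham_MG_DE. In stroke it was at 0.459, 0.482, 0.432 and 0.438 FPKM in tMCAO_MG_CON and at 1.46 and 1.24 FPKM in tMCAO_MG_DE. Replicate 1 of sham_MG_DE, the library that stood apart, was near the controls, and the other 5 depleted libraries were above all 7 control libraries. The log2 fold change of Col2a1 with depletion was 2.46 ± 0.45 (adjusted p = 0.0076) in sham. This call held without each single library, and was 2.79 without sham_MG_DE replicate 1 (adjusted p = 1.5e-05), but ended without sham_MG_CON replicate 2 and sham_MG_DE replicate 3 together (2.29, adjusted p = 0.061). In stroke it was 1.60 ± 0.41 (adjusted p = 0.019), lost without tMCAO_MG_DE replicate 1 or 2 (0.11 and 0.098). With stroke in control mice Col2a1 changed by 1.40 (adjusted p = 0.077), with no overlap of the groups and a call by DESeq2 (0.014), without sham_MG_DE replicate 1 (0.00079) and in the fit to only the groups compared (0.0043).

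Col20a1, a fibril-associated collagen, had the same library pattern. It was at 0.879, 0.703 and 0.771 FPKM in sham_MG_CON, 0.883, 3.25, 2.14 and 2.24 FPKM in sham_MG_DE, 1.2, 1.72, 1.28 and 1.65 FPKM in tMCAO_MG_CON and 2.36 and 2.24 FPKM in tMCAO_MG_DE. Replicate 1 of sham_MG_DE was again next to the controls. With depletion in sham its log2 fold change was 1.41 ± 0.32 (adjusted p = 0.018), and 1.66 (adjusted p = 0.00029) without sham_MG_DE replicate 1. The call ended without sham_MG_CON replicate 1, 2 or 3 (adjusted p = 0.054, 0.063 and 0.065) and with the fit to only the groups compared (0.064), and an overlap with BX649560.1 on the same strand leaves its counts uncertain.

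Col7a1, the collagen of anchoring fibrils, and Col16a1, another fibril-associated type, rose in every sham_MG_DE library. Col7a1 was at 0.554, 0.718 and 0.659 FPKM in sham_MG_CON, 0.771, 1.77, 1.15 and 1.28 FPKM in sham_MG_DE, 0.552, 0.760, 0.663 and 0.497 FPKM in tMCAO_MG_CON and 0.917 and 1.08 FPKM in tMCAO_MG_DE. Col16a1 was at 3.46, 3.17 and 3.36 FPKM in sham_MG_CON, 4.03, 6.16, 5.10 and 5.54 FPKM in sham_MG_DE, 3.25, 4.92, 4.80 and 4.02 FPKM in tMCAO_MG_CON and 3.81 and 4.46 FPKM in tMCAO_MG_DE. In both genes replicate 1 was the lowest of sham_MG_DE and still above sham_MG_CON. Their log2 fold changes with depletion in sham were 0.92 ± 0.23 and 0.61 ± 0.15 (adjusted p = 0.024 for each). Each call ended without sham_MG_CON replicate 1, 2 or 3 or sham_MG_DE replicate 2 or 4, at adjusted p from 0.055 to 0.093 for Col7a1 and from 0.064 to 0.076 for Col16a1, and that of Col7a1 with the fit to only the groups compared (0.067).

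Col10a1, the collagen of hypertrophic cartilage, rested on few counts. Sham_MG_CON held 2 counts in all and sham_MG_DE 44, a depth-scaled ratio of 16 with an exact 95% interval of 4.17 to 136.0 that covers counting error only. Levels were listed at 0.0331, 0 and 0 FPKM in sham_MG_CON and at 0.0332, 0.303, 0.210 and 0.181 FPKM in sham_MG_DE, with replicate 1 again at the control level. The call (adjusted p = 0.026) ended without sham_MG_CON replicate 2 or 3 (0.08 and 0.089), without sham_MG_DE replicate 2, 3 or 4 (0.072, 0.051 and 0.059), with limma on log2(FPKM + 1) (0.054) and with the fit to only the groups compared (0.07). Its exons overlap Nt5dc1 on the opposite strand, and the strand setting of the counts is not given.

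Col12a1, a fibril-associated collagen of dense connective tissue, was the member that fell with depletion in sham. It was at 1.71, 1.28 and 1.47 FPKM in sham_MG_CON and at 0.944, 0.725, 1.09 and 1.04 FPKM in sham_MG_DE, without overlap, and at 1.11, 1.27, 1.48 and 1.04 FPKM in tMCAO_MG_CON and 0.733 and 0.937 FPKM in tMCAO_MG_DE. The change was -0.68 ± 0.16 (adjusted p = 0.02), lost without sham_MG_CON replicate 1 or 3 (0.084 and 0.061) and without sham_MG_DE replicate 2 (0.051). Without sham_MG_DE replicate 1, 9 of the 54 were called between the sham groups, 5 higher and 4 lower. All genes called rose as well, to 3725 from 1921 with every library. Col11a1, Col26a1 and Col4a5 then joined Col12a1 among the lower members (log2 fold changes -0.52, -0.58 and -0.65). The sums of 3 haemoglobin genes were 18.3 FPKM in sham_MG_CON replicate 2 and 18.9 FPKM in sham_MG_DE replicate 3, against 0.689 to 7.07 FPKM in the other sham libraries. A higher sum, 22.6 FPKM, was in tMCAO_MG_CON replicate 1, which was kept. Without that pair of sham libraries 1 member was called, which was lower, and none of the 5 rises was left (adjusted p = 0.061 for Col2a1, 0.086 for Col7a1, 0.11 for Col20a1, 0.12 for Col16a1 and 0.13 for Col10a1). All genes called fell as well, to 219 from 1921.

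**Figure D5:**
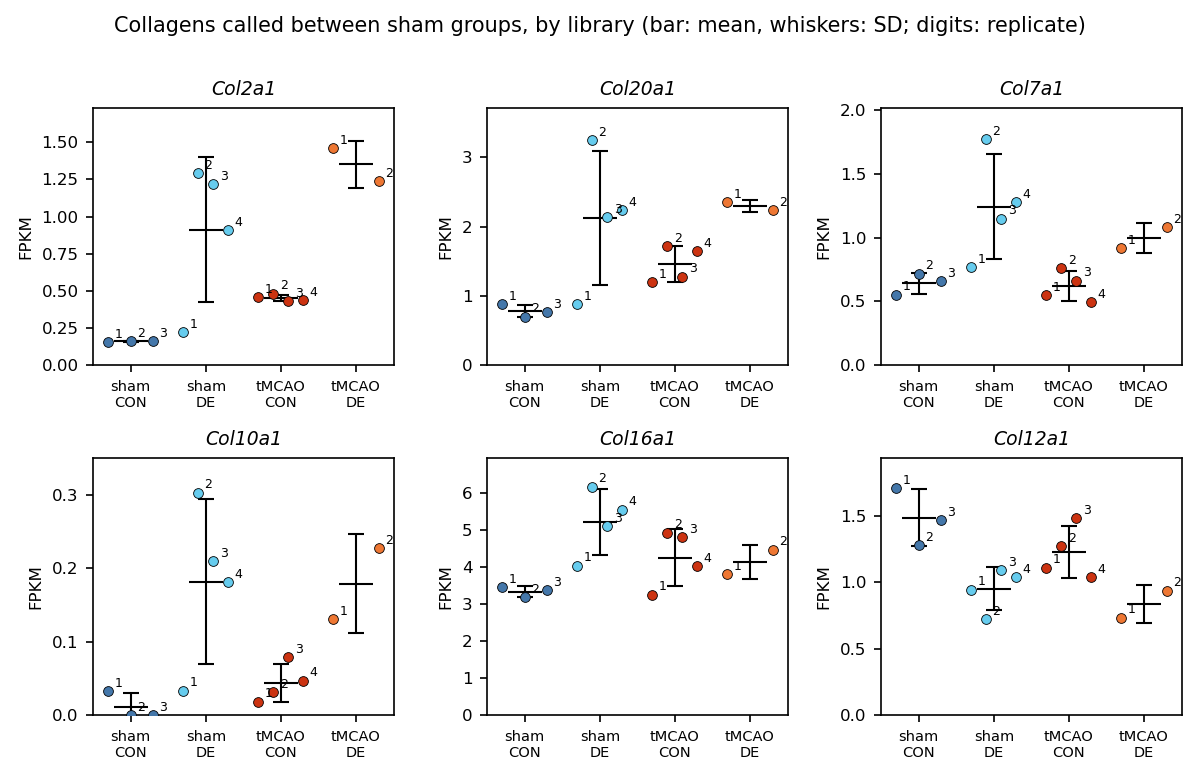
Levels in FPKM of the 6 collagens called between the sham groups, in each library (points, numbered by replicate) with the group mean (bar) and SD (whiskers); each vertical axis starts at 0. Replicate 1 of sham_MG_DE lies at or near the sham_MG_CON level for Col2a1, Col20a1, Col7a1 and Col10a1, and replicates 2 to 4 lie above it.

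In stroke, depletion was marked by lower levels of Col1a1, Fn1 and Prelp, given above, and of Col9a3. Col9a3, a chain of the collagen IX on the surface of cartilage fibres, was at 1.17, 1.49, 1.56 and 1.63 FPKM in tMCAO_MG_CON and at 1.0 and 0.676 FPKM in tMCAO_MG_DE. In the sham groups it was at 1.66, 1.47 and 1.25 FPKM (sham_MG_CON) and 1.34, 1.70, 0.960 and 1.2 FPKM (sham_MG_DE). The stroke groups did not overlap, and tMCAO_MG_DE replicate 2 was the lowest of the 13 libraries. For Col9a3, the log2 fold change was -0.78 ± 0.24 (adjusted p = 0.037), lost without tMCAO_MG_CON replicate 2, 3 or 4 (0.06, 0.068 and 0.076) or tMCAO_MG_DE replicate 1 or 2 (0.055 and 0.31). No call of a member in this comparison outlasted the removal of each tMCAO_MG_DE library in turn: 1 member was called without replicate 1 and 0 without replicate 2, where 11 members had an unadjusted p under 0.05 by edgeR and 346 of all genes were called. Without tMCAO_MG_CON replicate 4, whose label conflicts, 3 members were called in this comparison and 10 with stroke in control mice, 9 of them shared with the full set. In that last comparison Fn1 was the one lost (0.78, adjusted p = 0.072).

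Collagen VI held no call. This filament-forming type had 0 of 6 chains called by edgeR in each of the 5 comparisons, with 1 at an unadjusted p under 0.05 in each stroke comparison and none in the others, and DESeq2 called 1 with stroke in depleted mice. Col6a1 ranged from 18.4 to 29.8 FPKM and Col6a2 from 2.26 to 4.71 FPKM over all libraries. Col6a4 was at 0.115 to 0.769 FPKM in sham_MG_CON and 0.836 to 1.12 FPKM in tMCAO_MG_CON without overlap, but its log2 fold change missed the threshold (adjusted p = 0.18), as did that in depleted mice (1.61, adjusted p = 0.065), also without overlap. In all, 31 of the 54 were called in no comparison.

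The counts of related genes that follow stand beside these shares of all genes tested. With stroke 5.14% were higher and 3.31% lower in control mice, and 6.59% and 5.84% in depleted mice, while with depletion 6.85% were higher and 4.49% lower in sham, and 9.36% and 9.26% in stroke. Of 28 genes tested that fold, modify and crosslink collagen, 3 rose with stroke in control mice: P4hb (0.51), a subunit of the enzyme that hydroxylates proline, Serpinh1 (1.16), the collagen chaperone, and Loxl2 (2.98), a crosslinking enzyme. In depleted mice 2 rose, P4hb (0.49) and Colgalt2 (0.70), and Colgalt1 fell (-0.52), both of the latter being enzymes that add galactose to collagen. Their median log2 fold change was 0.11 and 0.06 in these comparisons. Between the sham groups 1 was higher and 2 were lower with depletion, and between the stroke groups 3 were higher and 2 lower.

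Of 13 receptors for collagen and fibronectin tested, 5 rose with stroke in control mice and 4 in depleted mice, and none was called lower. Those in control mice included the fibronectin receptor subunit Itga5 (1.94), the collagen receptor Ddr2 (0.62) and the hyaluronan receptor Cd44 (2.89), and those in depleted mice were Itga5 (1.18), Ddr2 (0.55), Sdc4 (0.69) and Cd44 (2.27). With depletion 1 rose and 1 fell in sham, and again in stroke. Of 15 laminins and other basement membrane proteins, Nid1 (0.82) and Hspg2 (0.99), which link the type IV and laminin networks, rose with stroke in control mice. In depleted mice 3 rose (Lama5 0.51, Lamc1 0.40 and Nid1 1.11) and 2 fell, and with depletion 1 rose and 1 fell in sham and 2 rose in stroke.

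Of 18 other matrix proteins of fibroblasts tested, 7 rose with stroke in control mice, among them Thbs1 (3.78) and Tnc (3.10), matricellular proteins of injury, and Fbln5 (1.38) and Emilin1 (1.35), proteins of elastic fibres. The 1 that fell, Sparcl1 (-0.35), is named after its value was seen. In depleted mice 3 rose (Tnc 2.94, Cyr61 1.40 and Ctgf 1.0). With depletion in stroke, Bgn, Eln and Mgp fell (-0.89, -0.90 and -0.87) and Fbln2 rose (1.04), and with depletion in sham 2 rose. The median was 0.55 with stroke in control mice and 0.30 in depleted mice, against 0.02 and 0.00 over all genes.

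The TGF-beta pathway is a main inducer of collagen in fibroblasts. Of 11 of its genes, 3 rose with stroke in control mice, among them Tgfbi (2.68), which TGF-beta induces, and 3 rose in depleted mice (Tgfb1 0.67, Tgfbr2 0.53 and Skil 0.54). The ligand Tgfb1 and the receptors Tgfbr1 and Tgfbr2 were lower with depletion in sham (-0.72, -1.18 and -0.48) and in stroke (-0.62, -1.03 and -0.53). Microglia are known to express all of these, and their part in those 3 values was not tested.

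Marker genes of the cells that could hold these transcripts moved as well. The 11 fibroblast markers tested summed to 33.2 to 38.5 FPKM in sham_MG_CON, 28.9 to 38.9 FPKM in sham_MG_DE, 36.9 to 59.1 FPKM in tMCAO_MG_CON and 35.3 to 43.1 FPKM in tMCAO_MG_DE, and none was at 0 in a whole group. Aldh1a2 (2.31) and Igfbp2 (1.28) rose with stroke in control mice and Aldh1a2 (1.77) in depleted mice, while the general fibroblast and precursor marker Pdgfra stayed at 2.89 to 4.15 FPKM. The log2 fold changes of this list with stroke ran from -0.25 to 2.31 (median 0.16) in control mice and from -2.85 to 1.77 (median -0.17) in depleted mice. With depletion in stroke they ran from -3.34 to 0.34 (median -0.06), with 0 calls by edgeR and 2 by DESeq2. The 5 smooth muscle markers summed to 14.7 to 17.5 FPKM in sham_MG_CON and 21.5 to 44.9 FPKM in tMCAO_MG_CON, the highest in replicate 2. Col1a1 and Col3a1 also were highest in that library, where the fibroblast marker sum was the lowest of that group (36.9 FPKM, against 48.5, 59.1 and 49.4 FPKM in replicates 1, 3 and 4). Replicate 3, with the highest fibroblast sum, held the highest Col1a2 (1.19 FPKM), Fn1 (10.1 FPKM), Dcn (23.1 FPKM) and Lum (2.90 FPKM) of the group. Both are single libraries, picked after their values were seen. In sham_MG_DE the smooth muscle sum was 15.7 to 25.2 FPKM and in tMCAO_MG_DE 11.6 to 14.9 FPKM. Of these 5 markers, 3 rose with stroke in control mice (Acta2 0.90, Tagln 1.21 and Cnn1 2.06) and 3 fell with depletion in stroke (Acta2 -1.33, Tagln -1.21 and Myl9 -0.90), and Myl9 also fell with stroke in depleted mice (-0.95).

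The 7 endothelial markers summed to 46.6 to 61.6 FPKM in sham_MG_CON, 42.1 to 51.8 FPKM in sham_MG_DE, 58.0 to 70.5 FPKM in tMCAO_MG_CON and 68.3 to 71.4 FPKM in tMCAO_MG_DE. Of these, 2 rose with stroke in control mice (Pecam1 0.70 and Ly6c1 0.78) and 4 in depleted mice (Pecam1 0.75, Cldn5 0.72, Cdh5 0.84 and Ly6c1 0.90). None passed edgeR's test with depletion, where 2 had an unadjusted p under 0.05 in sham and 2 in stroke, and DESeq2 called 1 in sham. The 6 pericyte markers summed to 23.2 to 35.5 FPKM over all libraries, the 7 choroid plexus markers to 1.02 to 6.94 FPKM and the 3 haemoglobin genes to 0.484 to 22.6 FPKM. The pericyte sum was 30.9 to 34.7 FPKM in sham_MG_CON, 23.4 to 33.1 FPKM in sham_MG_DE, 27.1 to 35.5 FPKM in tMCAO_MG_CON and 23.2 to 27.7 FPKM in tMCAO_MG_DE, so that the last lay below the first without overlap. Of the pericyte list, Kcnj8 rose with stroke in control mice (0.63) and depleted mice (0.91), and Rgs5 fell with depletion in stroke (-0.52). Of the choroid plexus list, Slc4a5 rose (3.62) and Ttr fell (-2.56) with depletion in sham. The part of any of these cell types in the changes of the matrix genes was not tested.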

How the data were processed

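Total RNA from brain was made into paired-end libraries with a TruSeq kit, per the labels' protocols. The submitters' processing notes name mm10, Cuffdiff and Cufflinks 2.1.1 without their roles. Which aligner, gene annotation and strand setting were used is not given in the sources used here. The authors deposited whole-number counts and FPKM per gene and library, in 1 table per group, with the authors' mean FPKM. Of 22110 (sham) and 22160 (tMCAO) entries, genes in all 4 tables were used; 29 repeated symbols were summed and 24 names turned into dates left out.

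Counts were scaled by TMM, filtered with filterByExpr (4116 genes removed) and fitted as 4 group means over 13 libraries with edgeR 4.0.16 in R 4.3.3 (quasi-likelihood, two-sided, Benjamini-Hochberg over 16940 genes, threshold 0.05; common biological coefficient of variation 15.2%). Standard errors were taken from each log2 fold change and its F statistic, as its size over the root of F. On simulated data the fit was tested for known changes. Alternatives used DESeq2 1.42.0, limma 3.58.1 on log2 FPKM plus 0.1 or 1, other scaling, no filter, a replicate block, only the groups compared, and each library left out.

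Values per library are given for 10 genes set by symbol and for members called in a comparison with a group mean of at least 1 FPKM; up to 4 called genes per context list were named by size. The 4 called members under that mean and further members were named after their values were seen. A planned search for genes with a similar pattern was left out, since libraries fall into 4 groups. The members and lists were chosen with earlier results of these data known. Libraries differ in the number written for the Rosa locus, read as 1 genotype by assumption. Libraries of a group all differed by more than counting noise (chi-square of at least 12.7 per gene). Annotation came from GENCODE M21 and promoters from RefSeq (GRCm38.p6); all 54 members had a GENCODE entry. A gene in each of 2 lists (microglial markers, TGF-beta genes) is not reported here, and those lists are given without it.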

Additional observations from a re-analysis of the deposited data

Results flagged for a closer look

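In each group of 4 libraries, the highest and the lowest FPKM value of every one of the 54 genes were set against the other 3. Of 108 such groups, 4 held a library apart from the rest, and chance gives about 1 in 20.

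Dcn was at 23.1 FPKM in tMCAO_MG_CON replicate 3, against 6.08 to 7.75 FPKM in the other 3 libraries. Prelp was at 4.64 FPKM in tMCAO_MG_CON replicate 4, against 2.21 to 2.61 FPKM in the others. The treatment entry of that library reads sham surgery, but it lay among the tMCAO libraries on the second principal component. Col6a5 was at 0.172 FPKM in sham_MG_DE replicate 4, against 0.0395 to 0.0454 FPKM. Col4a3 was at 0.0477 FPKM in sham_MG_DE replicate 1, against 0.0828 to 0.0878 FPKM, and neither of the last pair of genes was called in a comparison.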

How the results depend on the processing

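Of 32 calls of members over the 5 comparisons, 8 held without each library in turn (Col1a1, Col4a1, Col5a3, Col11a2 and Col24a1 with stroke in control mice, Col4a1 and Col5a3 with stroke in depleted mice, Col2a1 with depletion in sham) and 24 were ended by at least 1 library. The alternatives gave 2597 values for the 21 members named by rule and the 4 called members under 1 FPKM, in comparisons with and without a main call. Among these, 0 calls reversed, 127 were lost and 44 were gained. Only the 32 main calls could be lost, so the 2597 values are not the base for the losses. Without 1 library at a time, the members called numbered 5 to 13 with stroke in control mice, 3 to 12 with stroke in depleted mice, 1 to 9 with depletion in sham, 0 to 11 with depletion in stroke and 0 to 0 for the interaction; the low ends for stroke in depleted mice and depletion in stroke came without tMCAO_MG_DE replicate 2. With depletion in sham, 6 members were called in the main test, 3 with only the groups compared and 1, the lower Col12a1, without sham_MG_CON replicate 2 and sham_MG_DE replicate 3. All genes called numbered 1921, 645 and 219 in these fits, and 3725 without sham_MG_DE replicate 1, where 9 members were called. With depletion in stroke, 5 were called, 11 by DESeq2 and 9 with only the groups compared, and for the interaction DESeq2 called 1. The cause of these changes was not tested. Other scaling, no filter and both limma settings left each count within 1.5 times.

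Replicate numbers did not pair the libraries: deviations from the group means correlated at r = -0.0641 to 0.106 between same-numbered libraries. With the number as a replicate block, 9, 8, 3, 4 and 0 members were called, in the order above, and only the count for depletion in sham moved by more than 1.5 times. Of the 4 for depletion in stroke, only 2 were among the main calls. Fn1, Prelp and Col9a3 were lost there (adjusted p = 0.1, 0.068 and 0.059 by edgeR), and Col7a1 and Col26a1 were gained (0.04 and 0.037). Elsewhere none was gained. Fn1 was lost with stroke in control mice, Col4a2, Col18a1 and Col4a6 with stroke in depleted mice, and Col12a1, Col20a1 and Col10a1 with depletion in sham.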
